A study of Homo sapiens with 2 samples.

Results

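The 51 genes described here build, load or feed the DNA replication machinery, and all of them matched transcripts in the table of U87 glioblastoma cells treated with CCA-1.1 or with DMSO. The list follows function, with no value in its rule, and it was drawn up with earlier results of these data known. The genes comprise factors of origin licensing and helicase activation, DNA polymerases, nucleotide synthesis enzymes, E2F transcription factors and replication-coupled repair genes. The whole table covers 41578 gene symbols. U87 is an established human glioblastoma cell line, recorded in the labels as wild type. CCA-1.1 is a curcumin analog and DMSO is its solvent. Cells of both conditions were grown in RPMI medium with fetal bovine serum and kept for 72 h with either agent, and the concentration used for sequencing is not given in the sources used here. There was 1 RNA library for CCA-1.1 and 1 for DMSO, so the spread between replicates is unknown for every difference below, and nothing was tested.

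Before a cell enters S phase, the origin recognition complex (ORC), CDC6 and CDT1 load rings of the MCM2-7 helicase onto DNA, a step called licensing. CDC45 and the GINS complex then turn the rings into running helicases, and polymerases, the sliding clamp PCNA and its loader RFC copy the strands. Many of these genes are switched on by E2F factors at the G1/S border, and their transcripts are widely read as signs of proliferating cells, including glioblastoma cells.

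The values are in TPM, a transcript level corrected for transcript length and scaled to the same total in each library. TPM keeps no read depth, so no counting interval can be given. TPM was summed over the transcripts of each gene. A difference is the log2 of (TPM + 1) with CCA-1.1 less that with DMSO, negative where the CCA-1.1 library was lower, and it understates the change of genes at low TPM. For comparison, 12038 protein-coding genes averaged 1 TPM or more over both libraries. Their median difference was 0.02, with a 5th percentile of -0.31 and a 95th percentile of 0.36. Of the glioblastoma cell markers, CD44 was at 607.4 TPM with DMSO and 472.6 TPM with CCA-1.1, and VIM and CHI3L1 were above CD44 in both libraries. GFAP was at 0.41 TPM with DMSO and 0.57 TPM with CCA-1.1, and S100B was listed at 0 in both. Of all 8 glioblastoma cell markers, 4 were lower with CCA-1.1 and 3 were higher. Of 10 markers of other cell types, 5 had a mean of at least 1 TPM, and the list summed to 523.1 TPM with DMSO and 421.5 TPM with CCA-1.1. Most of that sum was the macrophage marker CD68, at 494.2 TPM and 397.1 TPM. The leukocyte gene PTPRC was under 0.1 TPM and the microglial gene AIF1 was listed at 0. Of all 10 markers, which include genes of other than immune cells, 5 were lower with CCA-1.1 and 4 were higher. Both libraries came from cultured U87 cells, and whether any other cells were present was not tested.

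The E2F recognition sequence was searched first, because E2F factors are known to act on many of these genes. Promoter sequences of RefSeq (GRCh38.p14), from 250 bases before to 50 bases after the start of each gene, were found for 45 of the 51 genes. The genes without an entry were E2F8, GINS4, MCM4, MCM5, RPA2 and RPA3. The 4 words TTTCCCGC, TTTCGCGC, TTTGCCGC and TTTGGCGC were searched on both strands, where TTTCGCGC and TTTGGCGC can overlap on opposite strands. At least 1 word was present in 22 of the 45 promoters (48.9%), against 908 of all 27305 promoters (3.33%). Among expressed protein-coding genes the share was 5.49%. In 19 of the 22 genes a word began within 60 bases before the start or after it, and 5 of the 22 held more than 1 word.

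The 8 stretches printed next let a promoter be read beside its gene's difference. They run 5′ to 3′ on the strand of the gene and end at or before its start, with the words in capitals. GCGGGAAA is TTTCCCGC, GCGGCAAA is TTTGCCGC and GCGCGAAA is TTTCGCGC, each read on the opposite strand. E2F1 and CDT1 were chosen after their values were seen, and the other 6 as the 3 highest and 3 lowest differences among genes averaging 10 TPM or more with a word wholly before the start.
E2F1 (chr20:33686386-33686431, minus strand): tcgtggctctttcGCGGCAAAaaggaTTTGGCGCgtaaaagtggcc
CDT1 (chr16:88803728-88803787, plus strand): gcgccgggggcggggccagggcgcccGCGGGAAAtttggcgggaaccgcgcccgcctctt
TYMS (chr18:657588-657647, plus strand): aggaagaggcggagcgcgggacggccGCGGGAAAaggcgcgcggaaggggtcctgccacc
POLA2 (chr11:65261883-65261942, plus strand): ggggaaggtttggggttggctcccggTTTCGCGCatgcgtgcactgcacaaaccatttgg
MCM3 (chr6:52284883-52284942, minus strand): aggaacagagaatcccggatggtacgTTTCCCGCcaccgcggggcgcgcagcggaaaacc
MCM7 (chr7:100101398-100101432, minus strand): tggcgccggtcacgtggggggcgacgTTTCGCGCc
MCM6 (chr2:135876496-135876555, minus strand): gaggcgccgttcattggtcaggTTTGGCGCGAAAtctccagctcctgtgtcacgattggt
RFC3 (chr13:33818068-33818127, plus strand): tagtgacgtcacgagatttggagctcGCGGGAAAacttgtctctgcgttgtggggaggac

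The same words stood before printed genes with different values, a spread set by how these genes were chosen. E2F1 (-0.89) and CDT1 (-0.57) were lower in CCA-1.1 treated U87 cells, and TYMS was at -0.34. MCM6, whose promoter held 4 words in overlapping pairs, was at 0.08, and RFC3 was at 0.15 with the same word as CDT1. Of the 19 genes with a word that averaged 1 TPM or more, 12 were lower with CCA-1.1, with a median difference of -0.08. Of the 21 genes without a word, 13 were lower, with a median of -0.12, and RRM2 was among them. Only 4 exact words within a fixed window were searched, so a gene without a word may still hold an E2F site. Lower by over 1.2-fold were 5 of the 19 genes with a word and 4 of the 21 without. Of the 12038 protein-coding genes, 46% were lower and 7.04% were lower by over 1.2-fold. The difference between genes with and without a word was not tested. The CCAAT box was present in 51.1% of the 45 promoters, against 35.7% of all promoters, and GGGCGG was present in 68.9% against 44.6%, both searched on either strand. Among promoters of expressed protein-coding genes the shares were 36.9% for CCAAT and 69.8% for GGGCGG, so the GGGCGG share of the 45 promoters was near that of expressed genes.

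Of the 51 genes, 45 averaged 1 TPM or more, and the statements on counts refer to these. In 30 of the 45 the CCA-1.1 value was lower, where 46% of the 12038 protein-coding genes were lower. The median difference of the 45 genes was -0.12. All fold limits here refer to ratios of TPM + 1. A ratio beyond 1.2-fold, which is 0.26 on the log2 scale, was found for 10 of them on the lower side, or 22.2%, against 7.04% of the protein-coding genes. On the higher side there were 0 of the 45, against 10.7%. Beyond 2-fold, 1 gene was lower, where 0.191% of the protein-coding genes were, and 0 were higher, where 0.15% were. Because these genes were not drawn at random and share a library, the shares are a description.

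**Figure D1:**
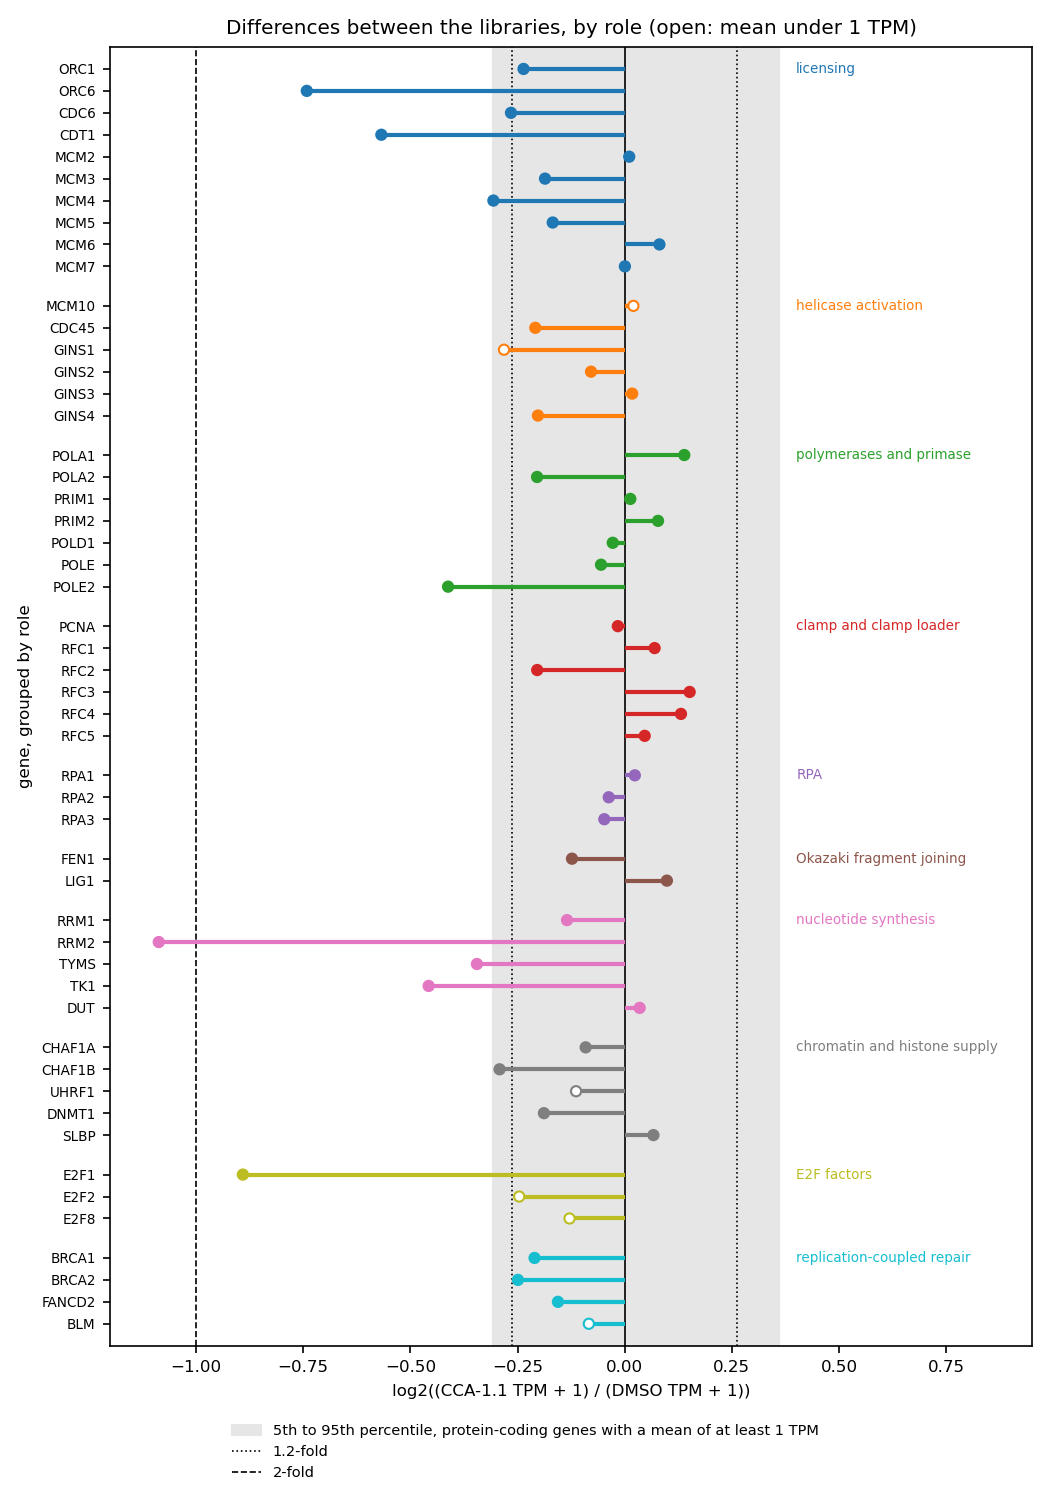
Differences of the 51 genes, grouped by role, on the x axis, on the log2(TPM + 1) scale, with 1 value per gene from 1 library per condition. Open points have a mean under 1 TPM, the grey band runs from -0.31 to 0.36 and holds the middle 90% of protein-coding genes, and RRM2, E2F1, ORC6 and CDT1 lie farthest to the left.

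The genes lower by over 1.2-fold lay mostly at low levels, while the genes with any lower value were split more evenly. Of the 19 genes with a mean of 1 to 10 TPM, 16 were lower and 7 were lower by over 1.2-fold, against 8.9% of protein-coding genes in that range. These 19 genes summed to 93.8 TPM with DMSO and 74.1 TPM with CCA-1.1. Of the 26 genes averaging 10 TPM or more, 14 were lower and 3 were lower by over 1.2-fold, against 6.07% in that range. They summed to 823.5 TPM with DMSO and 805.9 TPM with CCA-1.1, and their median difference was -0.02, so as a set they were near level. Across the 45 genes the Spearman correlation of mean TPM with the difference was 0.55, and across the 12038 protein-coding genes it was -0.14. These correlations run across genes of the same pair of libraries and are given as a description. All 51 genes together took 0.0922% of the TPM with DMSO and 0.0883% in CCA-1.1.

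**Figure D2:**
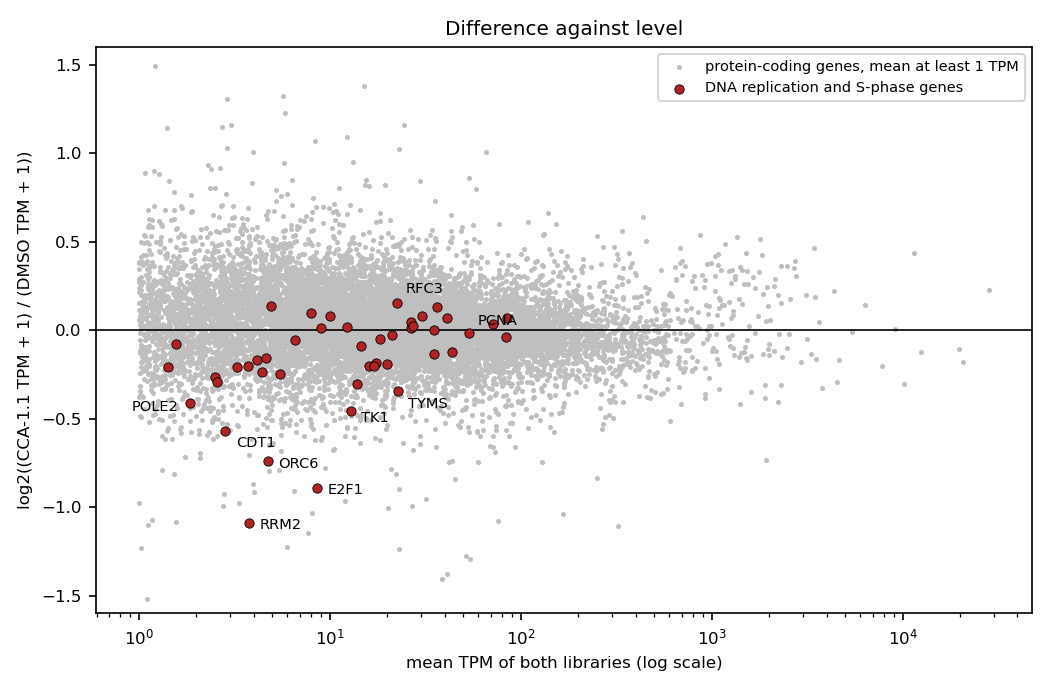
Difference on the y axis against mean TPM on a logarithmic x axis, with 1 point per gene. Red points are the 45 genes averaging 1 TPM or more and grey points are protein-coding genes at that level, of which 8 lie outside the plotted range, which ends 1.6 from 0 on each side. The red points below -0.5 all lie under 10 TPM.

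Among licensing factors, the loaders ORC1, ORC6, CDC6 and CDT1 were lower while the helicase subunits were mixed. ORC6, the smallest subunit of ORC (Entrez identifier 23594, chromosome 16 from 46689659 to 46698394 of GRCh38.p14), was at 6.19 TPM with DMSO and 3.30 TPM with CCA-1.1, a difference of -0.74. CDT1, which brings MCM2-7 to origins (identifier 81620, chromosome 16 from 88803789 to 88809258), was at 3.58 TPM and 2.09 TPM, a difference of -0.57. Of all differences among protein-coding genes, 0.39% and 0.814% were lower than those of ORC6 and CDT1. CDC6, the ATPase that acts with ORC, was at 2.81 TPM with DMSO and 2.17 TPM with CCA-1.1, a difference of -0.27 that lies at the 1.2-fold limit. ORC1, an ATPase subunit of ORC, was at 4.83 TPM and 3.95 TPM, a difference of -0.24 that was 0.03 when only curated transcripts were summed.

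The 6 subunits of MCM2-7 form 1 ring, but their levels per length were far apart, from 4.46 TPM for MCM5 to 35.1 TPM for MCM7 in DMSO. MCM7 was at 35.07 TPM with DMSO and 35.08 TPM with CCA-1.1, and MCM2 was at 26.5 TPM and 26.7 TPM, so these subunits were level. MCM6 was at 9.75 TPM and 10.4 TPM. MCM3 was at 18.6 TPM and 16.2 TPM, and MCM5 was at 4.46 TPM and 3.86 TPM. MCM4, at 15.4 TPM and 12.2 TPM, had the largest difference of the ring, -0.31. In all, 3 subunits were lower and 3 were higher, and MCM4 was the subunit beyond 1.2-fold. MCM7 stood at 0.0004 and is lower with the median ratio scaling or with its leading transcript alone.

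Helicase activation genes were low in U87 cells, apart from GINS3. CDC45, the helicase cofactor, was at 1.6 TPM with DMSO and 1.25 TPM with CCA-1.1, a difference of -0.21. Of the GINS subunits, GINS1 was at 1.03 TPM and 0.67 TPM, GINS2 at 1.64 TPM and 1.5 TPM, GINS3 at 12.2 TPM and 12.4 TPM, and GINS4 at 4.04 TPM and 3.38 TPM. GINS3 was level and the other 3 were lower, with GINS1 under a mean of 1 TPM. MCM10, a factor that binds early replication forks, was at 0.42 TPM and 0.44 TPM, and the rounding of deposited values alone allows a log2 ratio without pseudocount from -0.07 to 0.20.

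Polymerase and primase genes were within 1.2-fold, with POLE2 as the exception. POLA1, the catalytic subunit of DNA polymerase alpha, was at 4.64 TPM with DMSO and 5.21 TPM with CCA-1.1, a difference of 0.14. Its partner POLA2 was at 17.2 TPM and 14.8 TPM, a difference of -0.20. The primase subunits PRIM1 (8.94 TPM and 9.03 TPM) and PRIM2 (29.4 TPM and 31.1 TPM) were slightly higher. POLD1, the catalytic subunit of DNA polymerase delta, was at 21.4 TPM and 21.0 TPM. POLE, that of DNA polymerase epsilon, was at 6.71 TPM and 6.42 TPM. POLE2, an accessory subunit of polymerase epsilon (identifier 5427, chromosome 14 from 49643555 to 49688214), was at 2.26 TPM and 1.45 TPM, a difference of -0.41. The difference of POLE2 thus exceeded that of POLE (-0.06), in a gene whose signal was divided over 8 transcripts above 0.

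The clamp, its loader and RPA were among the most abundant of the 51 genes, and none of these 9 genes passed 1.2-fold. PCNA, the sliding clamp, was at 53.9 TPM with DMSO and 53.3 TPM with CCA-1.1. RFC1, the large loader subunit, was at 40.2 TPM and 42.3 TPM. RFC3 (21.3 TPM and 23.8 TPM) and RFC4 (34.6 TPM and 38.0 TPM) had the highest differences, 0.15 and 0.13. RFC5 was at 26.1 TPM and 27.0 TPM, and RFC2 was lower, at 18.3 TPM and 15.7 TPM. The median of the clamp and loader group was 0.06, and it was -0.005 when only curated transcripts were summed. The single-strand binding subunits were level, with RPA1 at 27.0 TPM and 27.4 TPM, RPA2 at 84.8 TPM and 82.6 TPM, and RPA3 at 18.7 TPM and 18.1 TPM. The flap nuclease FEN1 was at 45.8 TPM and 41.9 TPM, and LIG1, the ligase that joins Okazaki fragments, was at 7.65 TPM and 8.26 TPM.

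Nucleotide synthesis held the largest difference of all 51 genes. RRM2, the small subunit of ribonucleotide reductase (identifier 6241, chromosome 2 from 10122568 to 10211010), was at 5.50 TPM with DMSO and 2.06 TPM with CCA-1.1, which is 0.375 times the DMSO value. Its difference was -1.09, and 0.133% of the protein-coding genes had a lower one. RRM1, the large subunit of the same enzyme, was at 36.7 TPM and 33.4 TPM, a difference of -0.13. TK1, the cytosolic thymidine kinase (identifier 7083, chromosome 17 from 78174079 to 78187204), was at 15.01 TPM and 10.7 TPM, a difference of -0.46. TYMS, the thymidylate synthase (identifier 7298, chromosome 18 from 657653 to 673578), was at 25.6 TPM and 19.9 TPM, a difference of -0.34. DUT, which removes dUTP, was level at 70.9 TPM and 72.7 TPM. So 3 of the 5 genes were lower by over 1.2-fold, against 7.04% of the protein-coding genes, and 2 of these 3 make thymidine nucleotides. The gene ENOSF1 overlaps TYMS on the other strand and was at 15.2 TPM and 19.2 TPM. Whether counting used strand is not stated, and the part of shared reads was not tested.

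**Figure D3:**
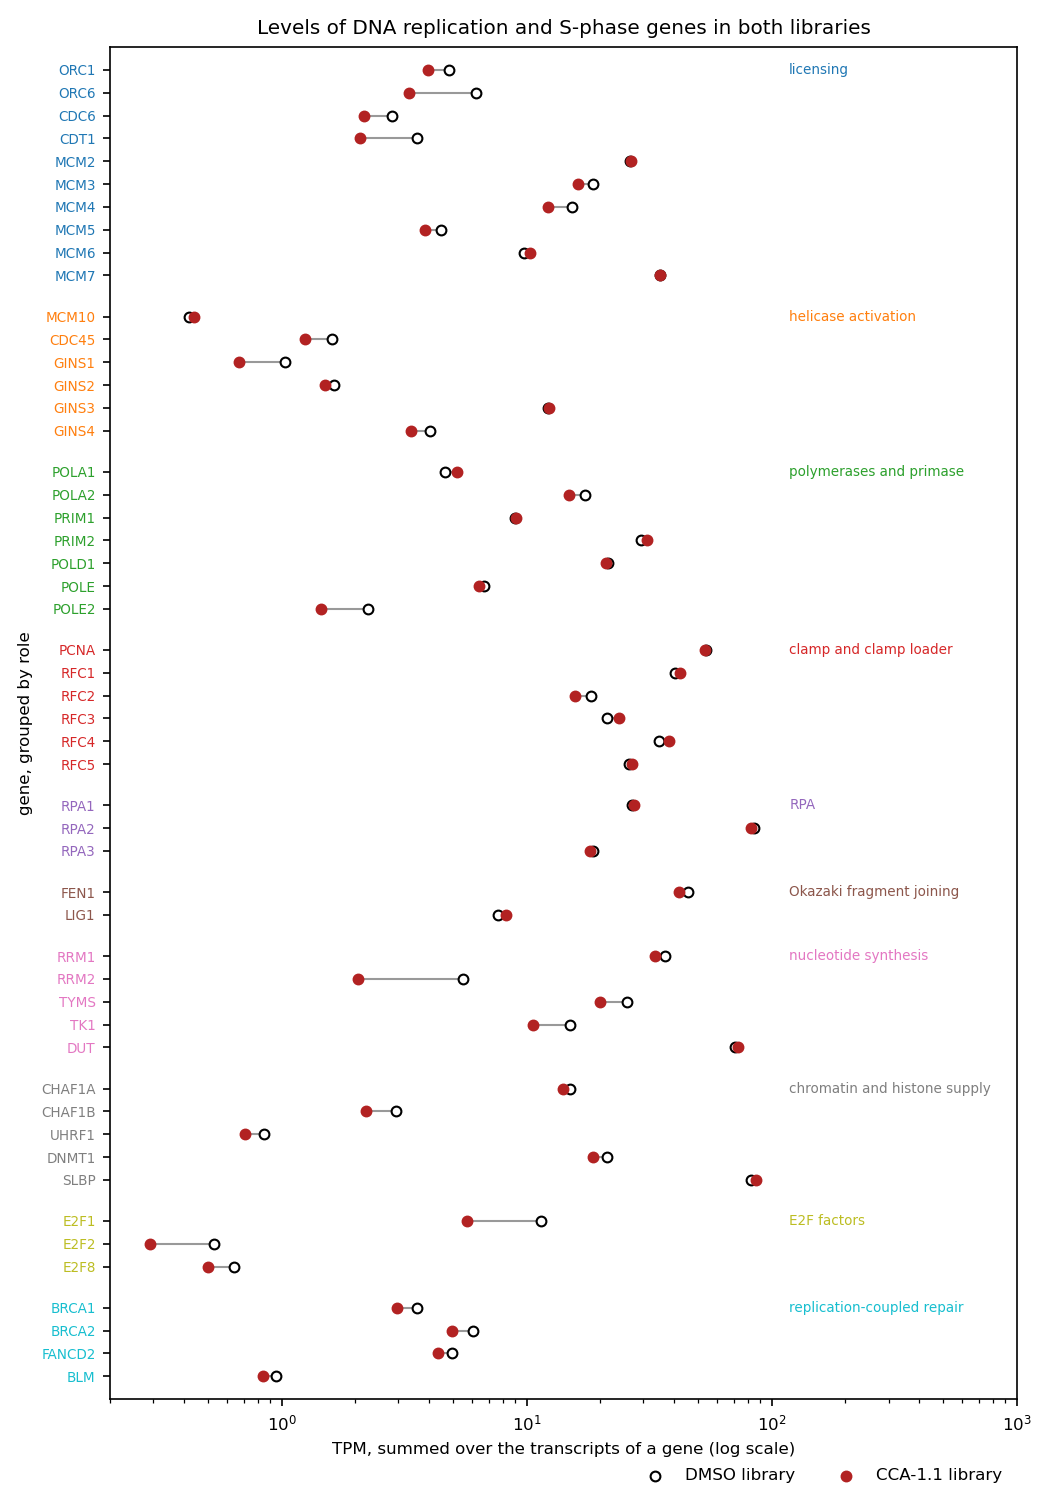
TPM of the 51 genes in the DMSO library (open points) and the CCA-1.1 library (red points) on a logarithmic x axis, grouped by role, with 1 library per condition and no error bars. The gaps are widest for RRM2, E2F1, ORC6 and E2F2, while the points of PCNA, RPA1 and MCM7 nearly coincide.

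All 3 E2F factors among the 51 genes were lower, and E2F1 carried most of their TPM. Other E2F factors went both ways. As differences, E2F5 (0.71), E2F6 (0.03) and E2F7 (0.07) were higher, and E2F3 (-0.19) and E2F4 (-0.14) were lower. E2F1, an activator of S-phase genes (identifier 1869, chromosome 20 from 33675477 to 33686385), was at 11.5 TPM with DMSO and 5.72 TPM with CCA-1.1, a ratio of 0.499. Its difference was -0.89, and without a pseudocount its log2 ratio was -1.0, at the 2-fold limit, which the rounding of the deposited values does not resolve. E2F2, another activator, was at 0.53 TPM and 0.29 TPM, and its leading transcript alone gave a difference of 0.17. E2F8, a repressor, was at 0.64 TPM and 0.50 TPM. Both lie under 1 TPM, where small absolute differences give large ratios.

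Chromatin genes were within 1.2-fold apart from CHAF1B. CHAF1A, the large subunit of the chromatin assembly factor CAF-1, was at 15.01 TPM with DMSO and 14.03 TPM with CCA-1.1. CHAF1B, the middle subunit, was at 2.93 TPM and 2.21 TPM, a difference of -0.29. DNMT1, the maintenance DNA methyltransferase, was at 21.4 TPM and 18.6 TPM, a difference of -0.19. UHRF1, which guides DNMT1 to newly copied DNA, was at 0.85 TPM and 0.71 TPM. SLBP, which binds the stem loop of histone mRNA, was at 82.6 TPM and 86.6 TPM, the second most abundant of the 51 genes in DMSO.

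The 4 repair genes were each lower, by less than 1.2-fold on the TPM + 1 scale. BRCA2, which acts in homologous recombination, was at 6.06 TPM with DMSO and 4.94 TPM with CCA-1.1, a difference of -0.25 that falls just short of the 1.2-fold limit. BRCA1 was at 3.57 TPM and 2.95 TPM, and FANCD2, of the crosslink repair pathway, was at 4.96 TPM and 4.35 TPM. The helicase gene BLM was at 0.95 TPM and 0.84 TPM. Without a pseudocount the ratios of BRCA2 and BRCA1 were 0.815 and 0.826, both past 1.2-fold. For BRCA1 the rounding of the deposited values allows a log2 ratio from -0.293 to -0.257. That range spans the 1.2-fold limit, 0.263 on the log2 scale, so the rounding does not resolve it. The differences of the 4 repair genes lay between -0.25 and -0.08, inside the middle 90% of protein-coding genes.

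The 51 genes had 277 transcripts in the table, of which 66 were listed at 0 in both libraries. The leading transcript was the same in both libraries for 45 genes and differed for 6, namely MCM3, CDC45, GINS1, POLE2, UHRF1 and E2F2. Most of these were low genes, and MCM3 was the exception. Its transcript NM_002388.6 was at 9.11 TPM with DMSO and 6.24 TPM with CCA-1.1, while NM_001366369.2 was at 6.64 TPM and 7.14 TPM. Of the 41 transcripts with at least 5 TPM in a library, 2 passed 2-fold (4.88%), where 3.19% of such transcripts of protein-coding genes did, and both were lower. They were NM_002592.2 of PCNA, at 9.31 TPM and 3.0 TPM, and NM_002914.5 of RFC2, at 5.96 TPM and 2.46 TPM. The other PCNA transcript, NM_182649.2, was at 44.6 TPM and 50.3 TPM, so the gene sum was level. In RFC2 the transcript NM_181471.3 was at 7.44 TPM and 10.1 TPM. PCNA-AS1, which overlaps PCNA on the opposite strand, was at 4.68 TPM and 9.67 TPM. Reads shared by transcripts of a gene were divided by estimation, and the part of that division was not tested. Overlaps with opposite-strand genes touch other members as well. UBXN6, at 230.6 TPM and 222.4 TPM, overlaps CHAF1A, PRPF38A, at 13.3 TPM and 15.3 TPM, overlaps ORC1, and NBR2, at 9.61 TPM and 11.0 TPM, overlaps BRCA1. WSB2, at 68.3 TPM and 63.5 TPM, overlaps RFC5, and GSE1, at 3.48 TPM and 4.20 TPM, overlaps GINS2. These partners were at a higher level than CHAF1A, ORC1, BRCA1, RFC5 and GINS2 themselves, and the values of these genes are uncertain. UMAD1, at 21.6 TPM and 24.9 TPM, overlaps RPA3 and was above it too.

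For the genes with the largest differences, the leading transcript was lower as well. NM_001034.4 of RRM2 was at 4.38 TPM with DMSO and 1.0 TPM with CCA-1.1, and the non-coding NR_164157.1 was at 1.12 TPM and 0.77 TPM. NM_005225.3 of E2F1 was at 10.5 TPM and 5.58 TPM. NM_014321.4 of ORC6 was at 5.09 TPM and 2.69 TPM. NM_003258.5 of TK1 was at 14.01 TPM and 7.96 TPM, while NM_001363848.1 was at 1.0 TPM and 2.43 TPM. For CDT1 the table lists a single transcript, NM_030928.4, so its value does not depend on a division within the gene.

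Other genes of the same pathways had medians near 0. The list of other replication genes, such as ORC2 to ORC5, CDC7 and TOPBP1, had 4 of 39 lower and 3 of 39 higher by over 1.2-fold, with a median of 0.02. Among those averaging 5 TPM or more the lowest were ASF1B, a histone chaperone (16.9 TPM with DMSO, 11.7 TPM with CCA-1.1), and RECQL4, a helicase (12.1 TPM, 8.49 TPM). The highest were RNASEH2B, of an enzyme that removes RNA from DNA, at 7.40 TPM and 10.0 TPM, and the ORC subunit ORC5, at 8.65 TPM and 13.7 TPM, so ORC subunits lay at both ends. ORC2 (0.14) and ORC4 (0.20) were higher as well and ORC3 (-0.28) was lower, as differences. The 23 other nucleotide supply genes had 1 lower and 1 higher by over 1.2-fold, with a median of 0.04. The higher one was IMPDH2, which acts in GTP synthesis, at 103.6 TPM and 132.5 TPM. CTPS1 (14.9 TPM and 13.0 TPM) and GMPS (21.6 TPM and 25.2 TPM), which make CTP and GMP, were within 1.2-fold. Other E2F pathway genes had 3 of 18 lower and 1 higher, E2F5 at 4.59 TPM and 8.13 TPM, with a median of 0.05. Next to E2F5 at the upper end was TFDP2 (10.3 TPM and 12.5 TPM), and among genes averaging 5 TPM or more the lowest were the E2F partner TFDP1 (29.9 TPM and 25.1 TPM) and E2F3 (6.36 TPM and 5.45 TPM). The 3 lower genes averaged less than that and were MYBL2 (1.35 TPM and 0.68 TPM), CCNE1 (5.16 TPM and 3.75 TPM) and LIN54 (5.50 TPM and 4.18 TPM), named after their values were seen. Other replication-coupled repair genes had 3 of 24 lower and 0 higher, with a median of 0.02. Among them the crosslink repair genes FANCI (10.3 TPM and 8.33 TPM) and FANCC (7.62 TPM and 8.63 TPM) differed in opposite directions. Together these lists had 11 of 104 genes lower by over 1.2-fold (10.6%), against 7.04% of the protein-coding genes. On the higher side they had 5 of 104, against 10.7%. In the order named, their promoters held an E2F word in 7 of 32 (21.9%), 1 of 20 (5%), 5 of 17 (29.4%) and 6 of 20 genes (30%). The share among expressed protein-coding genes was 5.49%, so the nucleotide supply list was near it. In the same order, the CCAAT box was in 56.2%, 35%, 41.2% and 60% of these promoters, against 51.1% of the 45 promoters searched above. So its share there was not particular to the 51 genes.

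Genes of the next cell cycle phase, G2/M, had a lower median. Of 16 such genes averaging 1 TPM or more, 12 were lower and 1 was higher by over 1.2-fold, with a median of -0.37. Among the protein-coding genes, 7.04% were lower and 10.7% were higher by over 1.2-fold. UBE2C, which helps degrade cyclins, was at 44.3 TPM with DMSO and 27.6 TPM with CCA-1.1, and the spindle factor TPX2 was at 19.6 TPM and 13.5 TPM. BUB1 (8.88 TPM and 8.10 TPM) and CCNB1 (14.7 TPM and 13.6 TPM) were within 1.2-fold. The CCAAT box was in 13 of 15 G2/M promoters (86.7%). In bulk RNA, fewer cells in a phase and less RNA per cell cannot be told apart. The difference between the G2/M list and the 45 replication genes was not tested.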

How the data were processed

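RNA of U87 cells was sequenced from 1 library each for DMSO and CCA-1.1, after 72 h. The submitters' processing notes name FastQC 0.11.9 and MultiQC 1.1, and the study's methods name Kallisto for quantification against human transcripts (GRCh38.p14). The authors deposited TPM per RefSeq transcript, rounded to 2 decimals. TPM keeps no read depth, so precision is unknown. Of 177816 transcripts, 169960 matched a gene symbol of the RefSeq table (GRCh38.p14) with versions ignored; the rest held 0.952% of the DMSO and 0.978% of the CCA-1.1 TPM. TPM was summed per gene, and log2(TPM + 1) differences were taken with no test, since each condition had 1 library. Protein-coding genes averaging 1 TPM or more served as background. All members were named, as were, of the other lists, the 2 highest and 2 lowest genes averaging 5 TPM or more, apart from some that are not reported here. Members, lists and the 1.2-fold limit were chosen with earlier results of these data known. The calculation was tested on simulated data with changes beyond 2-fold in genes at 10 TPM or more. That check did not cover the 1.2-fold limit or genes at lower levels. Alternatives were other pseudocounts, transcript sets, scaling and minimum levels. Python 3.11.15, pandas 2.3.3, numpy 2.4.6, scipy 1.17.1 and matplotlib 3.10.9 were used.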

Additional observations from a re-analysis of the deposited data

How the results depend on the processing

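No paired analysis was possible because each condition had 1 library, and no library could be left out. With a minimum mean of 10 TPM, which leaves 26 of the 45 genes, 14 were lower, 3 passed 1.2-fold, all 3 lower, 0 passed 2-fold and the median was -0.022. With curated transcripts only, 1 gene was higher by over 1.2-fold, and with leading transcripts only there were 2. These were POLA1 in both settings and RFC2 in the second. Without a pseudocount, 2 genes passed 2-fold, RRM2 and E2F1, the latter within the rounding of the deposited values. The count of genes lower by over 1.2-fold was 14 with a pseudocount of 0.1 TPM or none. Without one the added genes were ORC1, CDC45, BRCA1 and BRCA2, of which BRCA1 was at the limit within the rounding. Summed TPM in CCA-1.1 lay between 95.2% and 97.9% of DMSO under all settings that apply. Of the 51 single genes, 3 changed sign with curated transcripts, 10 with leading transcripts, 1 with median ratio scaling and 0 with other pseudocounts or versioned identifiers. None of these was beyond 1.2-fold on the reported log2(TPM + 1) scale, and with leading transcripts RFC2 was at 0.40. The role group medians of licensing and helicase activation changed sign under the minimum of 10 TPM, to 0.0004 over 5 genes and 0.02 over 1 gene.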
